A study of Mus musculus with 20 samples.

Results

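The genes Myc, Max, Mxd1, Mxd3, Mxd4 and Mnt were followed in mouse eosinophils grown from bone marrow. They were chosen by name, as the probe sets that the array's annotation assigns to these symbols, and are 6 of the 17771 genes with an unambiguous probe set. Each of the 6 had 1 probe set, and all 6 passed the filter on low values: every one of their values lay above the 40th percentile of its array. The study used 20 one-colour Affymetrix arrays, with 10 mice (5 per genotype) and 4 groups of 5 arrays. Cells from Dusp5-/- mice (KO) were taken after IL-33 and untreated, and cells from Dusp5+/+ mice (WT) after IL-33 and untreated. IL-33 was given at 25 ng/ml for 4 h on culture day 12, and untreated cells had medium only. The titles of the 10 IL-33 samples carry the word Dusp5 where the treatment would stand, in both genotypes, so the groups were taken from the treatment and genotype fields. All groups share the bone marrow culture, so each mouse stands for 1 culture, and the labels give neither the strain, age and sex of the mice nor how the allele was made. IL-33 is a cytokine of the interleukin-1 family that activates eosinophils, and Dusp5 encodes a nuclear phosphatase that inactivates the kinase ERK.

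Myc is a transcription factor that works as a pair with Max, and the Myc-Max pair binds the E-box CACGTG and raises genes for ribosome production, metabolism and cell growth. Mxd proteins and Mnt bind the same partner and the same box but recruit the Sin3 corepressor with histone deacetylases, so that they oppose Myc. Mxd1 and Mxd4 are known from differentiating, resting cells, Mnt is found in most cells whether they divide or not, and Mxd3 is known from cells in S phase. Myc mRNA and protein are short-lived, and the gene is a classical early target of cytokines and growth factors.

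The promoters of 4 members are shown because these members fell after IL-33 and the network is known for binding E-boxes in its targets. RefSeq windows (build GRCm38.p6, 250 bases before to 50 after the gene's start, 300 bases, read on the gene's strand) were matched by symbol for 5 of the 6 members, all but Myc. CACGTG, which reads the same on both strands, was found once in the windows of Mxd4 (chr5:34187661-34187960, minus strand), Mnt (chr11:74830674-74830973, plus strand) and Max (chr12:76962199-76962498, minus strand), with its first base at -219, -123 and -3 from the start. It was not found in those of Mxd1 (chr6:86669110-86669409, minus strand) and Mxd3. Of 32851 mouse promoter windows of this length, 7.15% hold it. Neither the FOXO-type motif GTAAACA, in 3.65% of windows, nor the AP-1-type motif TGACTCA, in 5.2%, was found on either strand of the 5 windows. Capitals mark CACGTG.
Mxd1: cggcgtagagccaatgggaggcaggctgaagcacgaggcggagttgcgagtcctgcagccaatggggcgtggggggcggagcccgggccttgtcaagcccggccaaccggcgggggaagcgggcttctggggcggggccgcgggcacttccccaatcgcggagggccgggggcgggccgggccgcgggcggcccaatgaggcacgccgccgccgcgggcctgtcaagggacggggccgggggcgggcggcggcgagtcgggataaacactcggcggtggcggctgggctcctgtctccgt
Mxd4: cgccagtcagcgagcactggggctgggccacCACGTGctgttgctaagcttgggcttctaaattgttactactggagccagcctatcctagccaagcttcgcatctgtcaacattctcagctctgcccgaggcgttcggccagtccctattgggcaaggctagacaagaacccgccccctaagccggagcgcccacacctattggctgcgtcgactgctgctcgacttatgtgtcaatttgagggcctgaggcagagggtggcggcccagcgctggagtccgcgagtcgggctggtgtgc
Mnt: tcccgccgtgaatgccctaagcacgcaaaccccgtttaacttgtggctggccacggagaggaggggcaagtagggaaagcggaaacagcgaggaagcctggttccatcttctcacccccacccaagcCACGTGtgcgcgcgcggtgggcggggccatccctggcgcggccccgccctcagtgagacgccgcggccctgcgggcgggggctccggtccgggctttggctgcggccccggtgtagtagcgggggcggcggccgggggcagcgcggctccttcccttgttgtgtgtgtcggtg
Max: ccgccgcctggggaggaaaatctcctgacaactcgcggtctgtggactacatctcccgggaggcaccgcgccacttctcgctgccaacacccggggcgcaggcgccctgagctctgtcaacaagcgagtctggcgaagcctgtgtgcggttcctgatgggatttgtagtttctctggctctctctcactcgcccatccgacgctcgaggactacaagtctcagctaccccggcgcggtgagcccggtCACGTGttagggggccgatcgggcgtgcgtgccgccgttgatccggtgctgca
The windows of the 5 members hold between 61% (Mxd4) and 76.7% (Mxd1) G and C bases, against a median of 52.7% over all windows.

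The arrays of a group correlated with each other at r from 0.987 to 0.997 (Pearson, over probe sets), and no 2 arrays held identical values. Dusp5 itself averaged 4.95 ± 0.18 log2 units with IL-33 and 4.40 ± 0.31 untreated in KO cells, against 9.77 ± 0.35 and 8.15 ± 0.26 in WT cells (SD, n = 5 arrays each), so each genotype label was borne out. The 7 measured eosinophil markers were bright on every array, with list means between 10.7 and 11.2. Markers of neutrophils (9 genes, 9.13 to 10.1), monocytes and macrophages (8 genes, 8.33 to 9.21) and mast cells and basophils (7 genes, 8.49 to 9.01) were also above background, while the 5 lymphocyte markers lay between 3.10 and 3.45. The labels name the cells eosinophils and no sort is described, so values are averages over whatever cells the cultures held, and fewer cells of a type and less RNA per cell cannot be told apart.

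After IL-33, Myc rose while Max and the antagonists Mxd1, Mxd4 and Mnt fell, in both genotypes. Myc mRNA was higher by 2.33-fold in KO cells (95% CI 1.98 to 2.76) and by 2.14-fold in WT cells (1.81 to 2.53). Mxd1 fell 3.09-fold in KO cells (2.69 to 3.55) and 2.76-fold in WT cells (2.41 to 3.17), Mxd4 2.64-fold and 2.23-fold, Mnt 1.55-fold and 1.56-fold, and Max 1.49-fold and 1.36-fold. Mxd3 was not called in either genotype. A gene was called when the adjusted p of limma's moderated test (Benjamini-Hochberg over 11766 tested genes) was under 0.05. By this rule 1 of the 6 members rose and 4 fell in each genotype. Many other genes moved too: among all tested genes, 18.9% rose and 33.2% fell in KO cells, and 16.1% rose and 26.7% fell in WT cells. This fit treated the arrays of 1 mouse as independent. With the mouse as a fixed block 1 member rose in each genotype, and 4 fell in KO and 5 in WT cells. Of all tested genes, 23.5% rose and 42% fell in KO cells in that fit, and 20.8% and 37% in WT cells. The median difference of all tested genes was -0.08 in KO cells and -0.05 in WT cells on the log2 scale, and that of the 6 members was -0.61 and -0.54.

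**Figure D1:**
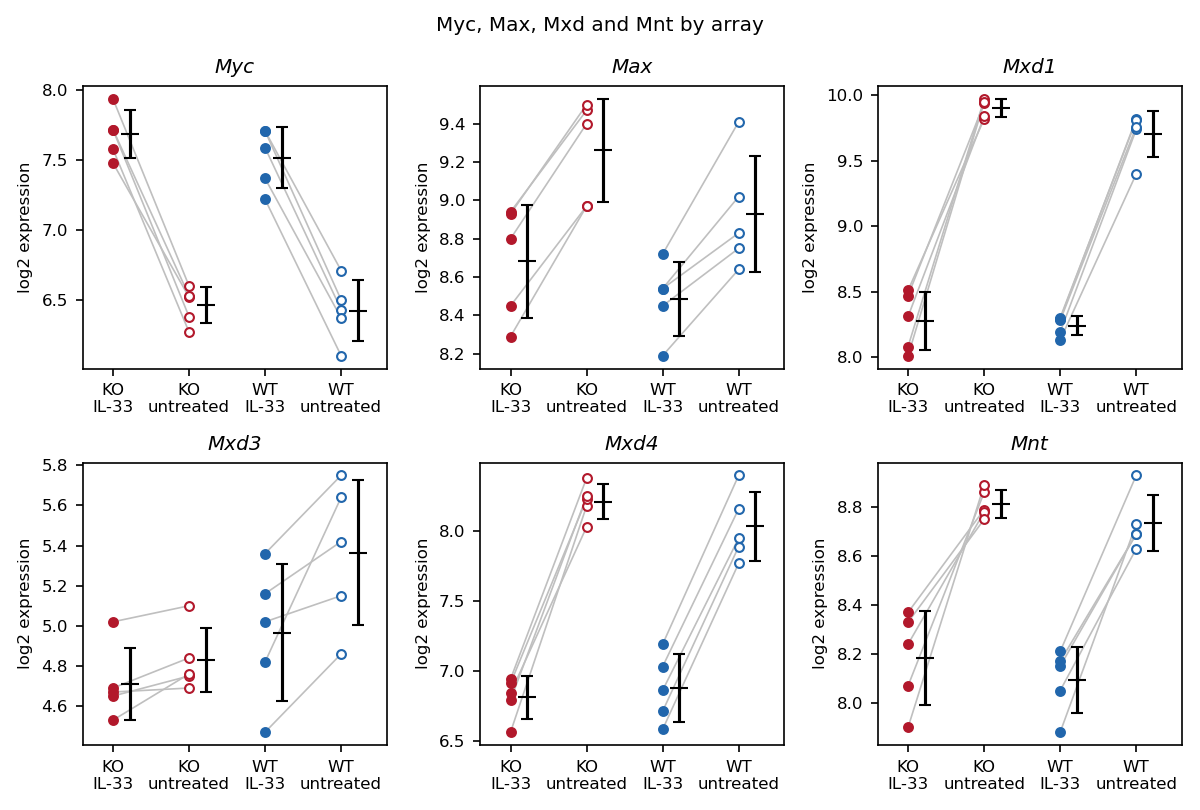
Log2 expression of Myc, Max, Mxd1, Mxd3, Mxd4 and Mnt on each of the 20 arrays, with a panel per gene and its own vertical range. Filled points are IL-33 arrays and open points untreated arrays of KO (red) and WT (blue) cells, grey lines join the arrays of 1 mouse, and black bars show the mean ± SD of 5 arrays. Myc lines run down from IL-33 to untreated in all 10 mice, and the lines of the other 5 genes run up in all 10.

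Myc, the activator, read 7.58, 7.48, 7.72, 7.72 and 7.94 log2 units on the 5 KO arrays with IL-33 (mice 1 to 5), against 6.27, 6.52, 6.38, 6.53 and 6.60 on the untreated KO arrays. WT cells gave 7.59, 7.71, 7.71, 7.37 and 7.22 with IL-33, against 6.43, 6.50, 6.71, 6.37 and 6.10 untreated. Every IL-33 array lay above every untreated array in both genotypes. The difference was 1.22 ± 0.12 (SE) in KO cells (adjusted p = 2.85e-08) and 1.10 ± 0.12 in WT cells (adjusted p = 2.07e-07, limma). Within mice the rise ran from 0.96 to 1.33 in KO and from 1.00 to 1.21 in WT mice. Of the 11766 tested genes, 272 in KO cells and 274 in WT cells had a larger positive difference than Myc. In order of level the groups stood at 7.69 ± 0.17 (KO with IL-33), 7.52 ± 0.22 (WT with IL-33), 6.46 ± 0.13 (KO untreated) and 6.42 ± 0.22 (WT untreated; SD, n = 5 arrays each), and the genotypes differed by less than their spread at either treatment.

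Max, the obligate partner of Myc and of its antagonists, moved the other way and by less. It read 8.45, 8.94, 8.29, 8.80 and 8.93 in KO cells with IL-33, against 8.97, 9.47, 8.97, 9.40 and 9.50 untreated. In WT cells it read 8.45, 8.72, 8.19, 8.54 and 8.54 with IL-33, against 8.75, 9.41, 8.64, 9.02 and 8.83 untreated. The treatments did not overlap in KO cells and overlapped in WT cells. Max fell by 0.58 ± 0.16 in KO cells (adjusted p = 0.00447) and by 0.44 ± 0.16 in WT cells (adjusted p = 0.0291, limma). All 10 mice showed the fall, from 0.51 to 0.68 in size in KO and from 0.29 to 0.69 in WT mice. The WT call was lost (adjusted p between 0.0506 and 0.0912) without untreated array 2 or 4, without IL-33 array 3 or without WT mouse 2, 4 or 5, and it was also lost after further quantile normalization (adjusted p = 0.0569). With the mouse as a fixed block the adjusted p of the WT fall was 4.32e-05. From high to low, Max averaged 9.26 ± 0.27 in untreated KO, 8.93 ± 0.30 in untreated WT, 8.68 ± 0.29 in IL-33-treated KO and 8.49 ± 0.19 in IL-33-treated WT cells (SD, n = 5 arrays each), and neighbouring groups in this order overlapped.

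Of the antagonists, Mxd1 changed most. Its KO values were 8.08, 8.47, 8.01, 8.51 and 8.31 with IL-33, against 9.97, 9.94, 9.95, 9.82 and 9.84 untreated. Its WT values were 8.19, 8.29, 8.13, 8.30 and 8.28 with IL-33, against 9.74, 9.82, 9.40, 9.81 and 9.76 untreated. The treatments did not overlap in either genotype, and array 3 of the untreated WT group was the lowest of its group. Mxd1 fell by 1.63 ± 0.10 in KO cells (adjusted p = 2.75e-11) and by 1.47 ± 0.10 in WT cells (adjusted p = 2.07e-10, limma). Only 47 tested genes in KO cells and 40 in WT cells had a more negative difference. The group means were 9.90 ± 0.07 in untreated KO, 9.71 ± 0.18 in untreated WT, 8.28 ± 0.23 in IL-33-treated KO and 8.24 ± 0.07 in IL-33-treated WT cells (SD, n = 5 arrays each).

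Mxd4, the antagonist next in size of change, read 6.84, 6.94, 6.56, 6.91 and 6.79 in KO cells with IL-33, against 8.03, 8.38, 8.18, 8.23 and 8.25 untreated. WT arrays gave 6.86, 7.19, 6.58, 7.03 and 6.71 with IL-33, against 7.95, 8.40, 7.77, 8.16 and 7.89 untreated. No IL-33 array reached the lowest untreated array in either genotype. Mxd4 fell by 1.40 ± 0.12 in KO cells (adjusted p = 8.61e-09) and by 1.16 ± 0.12 in WT cells (adjusted p = 2.08e-07, limma), and 94 and 110 tested genes had a more negative difference. Across WT mice the fall was nearly the same size, between 1.09 and 1.21, whereas KO mice ran from 1.18 to 1.62. Its means were 8.21 ± 0.13 in untreated KO, 8.03 ± 0.25 in untreated WT, 6.88 ± 0.24 in IL-33-treated WT and 6.81 ± 0.15 in IL-33-treated KO cells (SD, n = 5 arrays each), and the genotypes overlapped at each treatment.

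Mnt, the broadly expressed antagonist that binds Max in dividing and resting cells, read 8.07, 8.37, 7.90, 8.24 and 8.33 in KO cells with IL-33, against 8.86, 8.79, 8.89, 8.78 and 8.75 untreated. In WT cells it read 8.05, 8.17, 7.88, 8.21 and 8.15 with IL-33, against 8.63, 8.69, 8.73, 8.93 and 8.69 untreated. The treatments did not overlap in either genotype. Mnt fell by 0.63 ± 0.09 in KO cells (adjusted p = 4.67e-06) and by 0.64 ± 0.09 in WT cells (adjusted p = 6.10e-06, limma). The sizes in the 2 genotypes were thus nearly equal, although single KO mice ran from 0.42 to 0.98. Its order of means was 8.81 ± 0.06 (KO untreated), 8.73 ± 0.12 (WT untreated), 8.18 ± 0.19 (KO with IL-33) and 8.09 ± 0.13 (WT with IL-33; SD, n = 5 arrays each).

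Counts of members whose treatments did not overlap were 1 higher and 4 lower in KO cells, and 1 higher and 3 lower in WT cells. Over all tested genes 13.5% were higher and 25.0% lower without overlap in KO cells, and 10.7% and 17.6% in WT cells.

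**Figure D2:**
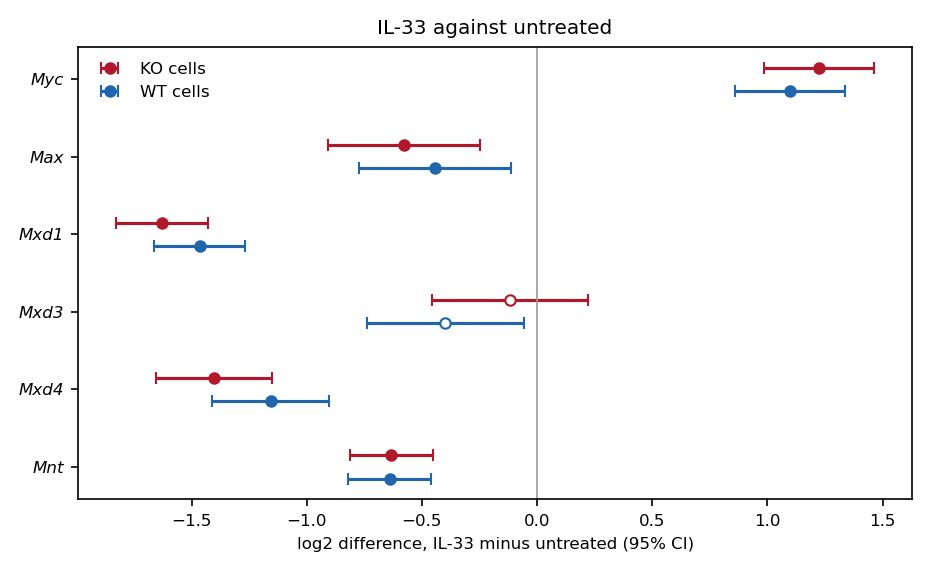
Log2 difference between IL-33 and untreated arrays for each gene, with 95% confidence intervals from limma, in KO (red) and WT (blue) cells. Filled points have an adjusted p under 0.05 over all tested genes. Myc lies to the right of 0 in both genotypes, Max, Mxd1, Mxd4 and Mnt to the left, and both Mxd3 points are open.

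Because the arrays of 1 mouse share a number, the change could also be read within each mouse. Myc was higher with IL-33 in 10 of 10 mice, and Max, Mxd1, Mxd3, Mxd4 and Mnt were each lower in 10 of 10. For each gene an exact two-sided sign-flip test over the 10 mice gave p = 0.00195, the smallest value that 10 mice allow. This p does not rank the genes: the Mxd3 change in KO mouse 4 was only -0.02. The share of all tested genes that moved 1 way in all 10 mice was not counted. A fit with the mouse as a fixed block called 23.5% of them higher and 42% lower in KO cells. In WT cells it called 20.8% higher and 37% lower. The gap that opened between the change of Myc and that of each partner was a difference of differences, not of levels. Against Mxd1 it averaged 2.85 ± 0.39 in KO and 2.56 ± 0.19 in WT mice, a 7.22-fold and a 5.91-fold shift. Against Mxd4 it was 2.63 ± 0.23 in KO and 2.26 ± 0.11 in WT mice (6.17-fold and 4.77-fold). Mnt gave 1.86 ± 0.36 in KO and 1.74 ± 0.07 in WT mice and Max 1.80 ± 0.19 and 1.54 ± 0.20 (SD, n = 5 mice each). Mxd3 gave the smallest gaps, 2.53-fold in KO and 2.82-fold in WT mice. No test was made of these gaps.

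Mxd3, the S-phase member, had small differences beside a wide spread between WT mice. It read 5.02, 4.69, 4.65, 4.67 and 4.53 in KO cells with IL-33, against 5.10, 4.84, 4.75, 4.69 and 4.76 untreated. WT cells gave 4.82, 4.47, 5.36, 5.02 and 5.16 with IL-33, against 5.64, 4.86, 5.75, 5.15 and 5.42 untreated. The treatments overlapped in both genotypes, and WT mouse 2 was the lowest of its group at both. The difference with IL-33 was -0.12 ± 0.16 in KO cells (adjusted p = 0.561) and -0.40 ± 0.16 in WT cells (adjusted p = 0.0544, limma). With the mouse as a fixed block, a fit that called 23.5% of tested genes higher and 42% lower in KO cells and 20.8% higher and 37% lower in WT cells, Mxd3 was called lower in WT cells (adjusted p = 9.74e-04) and not in KO cells (adjusted p = 0.214). The WT difference was also called (adjusted p between 0.0101 and 0.049) without untreated array 2 or 4, IL-33 array 3 or 5, WT mouse 2 or KO mouse 1, and it ranged from -0.40 to -0.52 in those fits. It stayed uncalled in 24 of the 30 fits with 1 array or mouse left out. Over all 30 it ranged from -0.27 to -0.52, with an adjusted p of up to 0.217 (limma).

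Proliferation genes are given beside Mxd3 because it is known from cells in S phase. Their list held 19 cell cycle genes, of which 17 were tested. Of the 17, 5 (29.4%, against 33.2% of all tested genes) fell and none rose in KO cells with IL-33, led by Mcm7 (-1.09), Mcm6 (-1.00), Mcm3 (-0.86) and Mcm2 (-0.84), subunits of the replicative helicase. In WT cells 3 (17.6%, against 26.7% of all tested genes) fell, Mcm7 (-0.90), Mcm2 (-0.78) and the sliding clamp Pcna (-0.37), and none rose. These shares are no higher than those of all genes. With the mouse as a fixed block 17 of 17 fell in KO cells, where 42% of all tested genes did, and 16 of 17 in WT cells, where 37% did. The median difference of the 17 was -0.53 in KO and -0.38 in WT cells, against -0.08 and -0.05 over all tested genes. The Mxd3 difference was negative in both genotypes but in the reverse order of size, -0.12 in KO and -0.40 in WT cells. Its interaction was not called (adjusted p = 0.999, limma). The mean of the 17 genes ranged from 7.32 to 8.52 in KO cells with IL-33 and from 7.94 to 8.97 in untreated KO cells, and from 7.56 to 9.27 in WT cells with IL-33 and from 8.13 to 9.70 in untreated WT cells. Of the progenitor markers, 4 of 7 (57.1%) fell in KO cells (Sox4 -1.45, Hoxa9 -1.26, Erg -0.89 and Meis1 -0.77) and 4 of 7 (57.1%) in WT cells (Sox4 -1.06, Erg -0.95, Hoxa9 -0.91 and Gata2 -0.32; 7 of 7 with the mouse as a fixed block). The mean of the 7 progenitor markers ranged from 5.54 to 5.997 with IL-33 and from 6.205 to 6.77 untreated in KO cells, and from 5.76 to 6.06 with IL-33 and from 6.45 to 6.71 untreated in WT cells, and no progenitor marker was below the 40th percentile on all arrays. Of the 8 tested monocyte and macrophage markers, 2 rose and 5 fell in KO cells and 2 rose and 3 fell in WT cells, with falls of Fcgr1 (-0.86 in KO and -0.55 in WT cells), Mertk (-0.67 and -0.48) and Cx3cr1 (-0.59 and -0.82) and rises of Adgre1 (0.66 and 0.70) and Csf1r (0.54 and 0.62). Of the 7 mast cell and basophil markers, none rose and 3 fell in KO cells (Kit -1.07, Fcer1a -0.48 and Mcpt8 -0.36), and 2 fell in WT cells (Fcer1a -0.43 and Mcpt8 -0.33), where Kit had a difference of -0.43 (adjusted p = 0.281, limma). The eosinophil receptors Il5ra (-1.08 in KO and -0.84 in WT cells) and Siglecf (-0.61 and -0.71) fell and the lineage factor Gata1 (0.24 and 0.26) rose, 3 of 7 eosinophil markers in all. Of 9 neutrophil markers 1 rose, Lcn2 (0.68 and 0.96), and none fell. Of 4 tested erythroid and megakaryocyte markers 1 fell in KO cells (Klf1 -0.37) and none was called in WT cells, and of 2 tested lymphocyte markers 1 rose in WT cells (Cd3e 0.26) and none was called in KO cells. Over all tested genes, without a block, 18.9% rose and 33.2% fell in KO cells, and 16.1% rose and 26.7% fell in WT cells. With the mouse as a fixed block 42% of all tested genes fell in KO and 37% in WT cells. In that fit 7 of 9 neutrophil markers fell in KO and 4 of 9 in WT cells. Monocyte and macrophage markers gave 6 of 8 and 5 of 8, and erythroid and megakaryocyte markers 3 of 4 and 2 of 4. Progenitor markers gave 6 of 7 in KO cells. Eosinophil markers gave 3 of 7 in both genotypes, as did mast cell and basophil markers, and no lymphocyte marker fell. The part that the make-up of the cultures had in the falls of Mxd1, Mxd4, Mnt and Max was not tested.

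The relation of Mxd3 to the 17 genes was looked at across mice after their values had been seen. Over the 10 mice with IL-33, Pearson's r was 0.884 (permutation p = 0.00104, adjusted 0.00104) and Spearman's rho 0.758 (permutation p = 0.0144, adjusted 0.0144). Over the 10 mice untreated, Pearson's r was 0.909 (permutation p = 3.7e-04, adjusted 7.4e-04) and Spearman's rho 0.830 (permutation p = 0.00485, adjusted 0.0097). Within each treatment, arrays with higher proliferation genes tended to have higher Mxd3. These are 2 relations, each tested two-sided with 100000 resamples and adjusted over the 2 by Benjamini-Hochberg. Both use the same 10 mice, so they are not independent. The resamples moved values freely between genotypes. The p-values therefore do not separate a relation within a genotype from a difference between genotypes. How many other genes tracked the list across mice was not counted. Without the 2 mice farthest from the median of the list, r was 0.744 with IL-33 and 0.883 untreated. Within the 5 KO mice it was 0.749 with IL-33 and 0.758 untreated, and within the 5 WT mice 0.918 and 0.908.

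**Figure D3:**
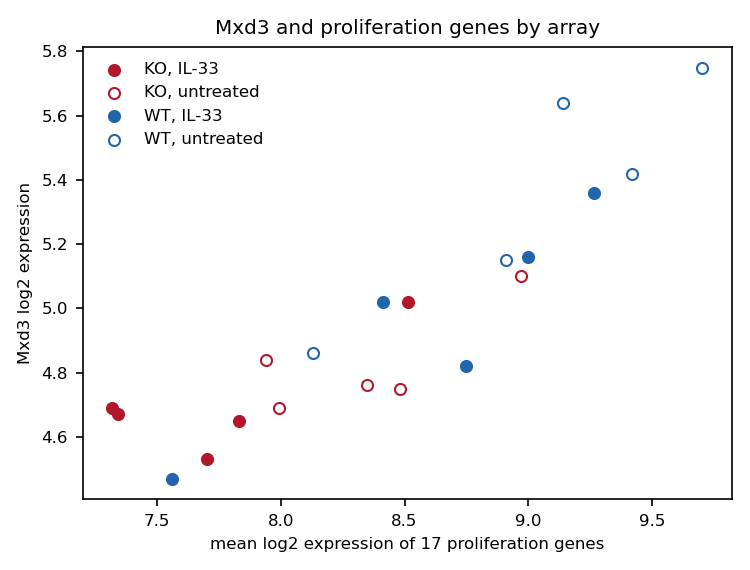
Mxd3 log2 expression (vertical) against the mean log2 expression of 17 proliferation genes (horizontal) on each of the 20 arrays, KO in red and WT in blue, IL-33 filled and untreated open. Points rise together from lower left to upper right at both treatments (r = 0.884 with IL-33 and 0.909 untreated over 10 mice each).

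Loss of Dusp5 was then compared at each treatment. None of the 6 members was called in either comparison. In all, 260 of 11766 tested genes (2.21%) were called between KO and WT cells with IL-33, and 3 (0.0255%) between untreated cells, where 1517 had an unadjusted p under 0.05. Those counts rest on single mice: with 1 array or mouse left out, the IL-33 count ran from 24 (without WT mouse 5) to 2094 (without WT mouse 2), and the untreated count was 651 without WT mouse 2, 15 without its untreated array, 5 without KO mouse 5 or its untreated array and 3 or 4 in the other fits. With IL-33 the KO minus WT difference of Myc was 0.17 (95% CI -0.07 to 0.41), which allows KO cells to lie between 1.05-fold lower and 1.33-fold higher. Untreated, it was 0.04 (-0.20 to 0.28). Mxd1 differed by 0.04 (-0.16 to 0.24) with IL-33 and by 0.20 (-0.00089 to 0.40) untreated, Mxd4 by -0.07 (-0.32 to 0.19) and 0.18 (-0.07 to 0.43), and Mnt by 0.09 (-0.09 to 0.27) and 0.08 (-0.10 to 0.26).

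The widest genotype gaps were those of Mxd3 and Max in untreated cells. Mxd3 averaged 4.83 ± 0.16 in untreated KO cells and 5.36 ± 0.36 in untreated WT cells (SD, n = 5 arrays each), a difference of -0.54 (95% CI -0.87 to -0.20) with an unadjusted p of 0.00362 and an adjusted p of 0.383 (limma). The ranges overlapped, since WT mouse 2 (4.86) lay within the KO range, and without that mouse the adjusted p was 0.0307. The 17 proliferation genes had a median KO minus WT difference of -0.72 in these cells, against -0.0048 over all tested genes, and none of the 17 was called. With IL-33, Mxd3 averaged 4.71 ± 0.18 in KO cells and 4.97 ± 0.34 in WT cells (SD, n = 5 arrays each), and the difference was -0.26 (95% CI -0.59 to 0.08). The median difference of the 17 proliferation genes was wider there, -0.86, against -0.030 over all tested genes, and none of the 17 was called. Max was higher in untreated KO cells by 0.33 (95% CI 0.0020 to 0.66) with an unadjusted p of 0.0487 and an adjusted p of 0.383 (limma), and by 0.20 (-0.13 to 0.53) with IL-33. Its ranges overlapped at both treatments.

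**Figure D4:**
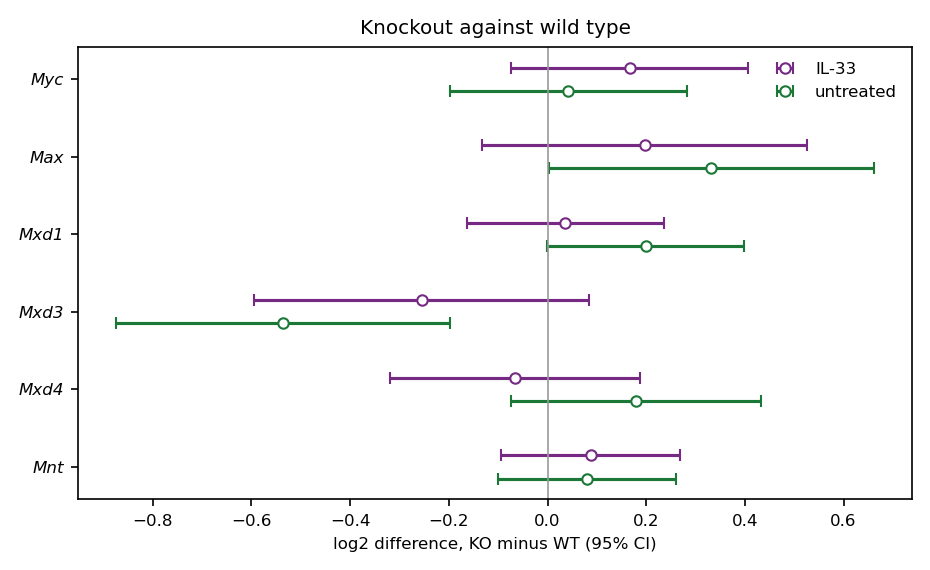
Log2 difference between KO and WT cells for each gene, with 95% confidence intervals from limma, with IL-33 (purple) and untreated (green). All points are open, as none has an adjusted p under 0.05 over all tested genes, and the untreated Mxd3 interval lies farthest from 0.

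Whether IL-33 acted differently by genotype was tested as the KO change minus the WT change. No tested gene was called (0%), 568 had an unadjusted p under 0.05, 26 were called with the mouse as a random block, 0 with it as a fixed block, and 3 without IL-33 array 2 of the WT group. The 6 members had differences of 0.13 (Myc), -0.14 (Max), -0.16 (Mxd1), 0.28 (Mxd3), -0.25 (Mxd4) and 0.01 (Mnt), each with an adjusted p of 0.999 (limma). Mxd4 fell by 1.40 ± 0.16 in KO mice and by 1.16 ± 0.05 in WT mice (SD, n = 5 mice each), which an exact two-sided permutation test of single changes put at p = 0.0238. For Mxd3 the changes were -0.12 ± 0.08 in KO mice and -0.40 ± 0.26 in WT mice (SD, n = 5 mice each; exact permutation p = 0.0317). These p-values stand beside 0.143 to 0.944 for the other 4 members and are not adjusted for the 6 genes. The ranges of the mice overlapped for both genes.

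Of the other genes of the extended network, Mxi1 followed Mxd1. Mxi1 encodes another Mxd protein, and its gene is a neighbour of Dusp5 on chromosome 19, the locus altered in the KO mice. It averaged 9.53 ± 0.14 with IL-33 and 10.44 ± 0.03 untreated in KO cells, and 9.61 ± 0.10 with IL-33 and 10.32 ± 0.04 untreated in WT cells (SD, n = 5 arrays each). It fell by 0.91 ± 0.07 in KO cells and by 0.72 ± 0.07 in WT cells (SE, adjusted p = 5.73e-10 and 2.82e-08, limma). Between genotypes it differed by -0.08 with IL-33 and by 0.11 untreated, neither of them called. The untreated groups did not overlap, though: KO arrays lay at 10.405 or above and WT arrays at 10.391 or below. Over all tested genes 0.527% were higher in untreated KO cells without overlap. The Mxi1 change of KO mice minus that of WT mice was -0.19 (exact two-sided permutation p = 0.0317, unadjusted), and the mice overlapped. Its interaction in limma had an adjusted p of 0.999. Mlx, which pairs with the nutrient-sensing Mlxip and Mlxipl proteins and with some Mxd proteins, rose by 0.37 in KO cells (adjusted p = 0.0175, limma) and had a difference of 0.27 in WT cells (adjusted p = 0.0856). Mga, a large Max-binding repressor, rose by 0.31 in KO cells (adjusted p = 0.0315, limma) and had a difference of 0.02 in WT cells. It was dim, with group means from 4.23 to 4.535 where array medians were 4.25 to 4.32. With the mouse as a fixed block, 1 of the 5 tested genes of this kind rose (Mlx) and 2 fell (Mxi1 and Mycl) in WT cells. Of all tested genes 20.8% rose and 37% fell there. In KO cells 2 of the 5 rose and 1 fell in that fit, against 23.5% and 42%. Mlxip and Mycl were not called in either genotype without the block, and Mycn and Mlxipl did not pass the filter on low values. Mycl lay close to that filter (3.56 to 3.68), with group means from 3.78 to 3.98 and 1 WT array with IL-33 below it.

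Genes known to be raised by Myc mostly had small differences. Of 30 tested, 12 rose and 4 fell in KO cells, and 14 rose and 4 fell in WT cells, shares of 40% and 46.7% for those that rose, against 18.9% and 16.1% of all tested genes. Those that fell made up 13.3% in each genotype, against 33.2% in KO and 26.7% in WT cells. Their median difference was 0.13 in KO and 0.17 in WT cells, against -0.08 and -0.05 over all tested genes. The largest were Ccnd2, a G1 cyclin (1.02 in KO and 0.76 in WT cells), Eif5a, a translation factor (0.66 and 0.57), and Eif4e, the cap-binding protein (0.65 and 0.56). Tfap4, a transcription factor known as a direct Myc target, went the other way and fell by 0.98 in KO and by 1.18 in WT cells. With the mouse as a fixed block 14 rose and 11 fell in KO cells, where 23.5% of all tested genes rose and 42% fell. In WT cells 15 rose and 10 fell in that fit, where 20.8% of all tested genes rose and 37% fell.

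Genes known to be lowered by Myc were split. Of 13 tested, 4 rose and 4 fell in KO cells (30.8% each, against 18.9% and 33.2% of all tested genes), and 6 rose and 3 fell in WT cells (46.2% and 23.1%, against 16.1% and 26.7%). The fit with the mouse as a fixed block gave 4 and 5 in KO cells, against 23.5% and 42% of all tested genes. In WT cells it gave 6 and 5, against 20.8% and 37%. Their median difference was 0.04 in KO and 0.15 in WT cells. Cdkn1a, the inhibitor p21, rose by 1.47 in KO and by 1.03 in WT cells, while its relative Cdkn1b, the inhibitor p27, fell by 1.34 and by 1.09. Gadd45b, a stress-response gene, rose by 1.13 in KO and by 0.98 in WT cells. Of the CDK4 and CDK6 inhibitors, Cdkn2b rose by 0.73 in KO and by 0.76 in WT cells, and Cdkn2c fell by 0.86 in KO cells and had a difference of -0.61 in WT cells (adjusted p = 0.104, limma).

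**Figure D5:**
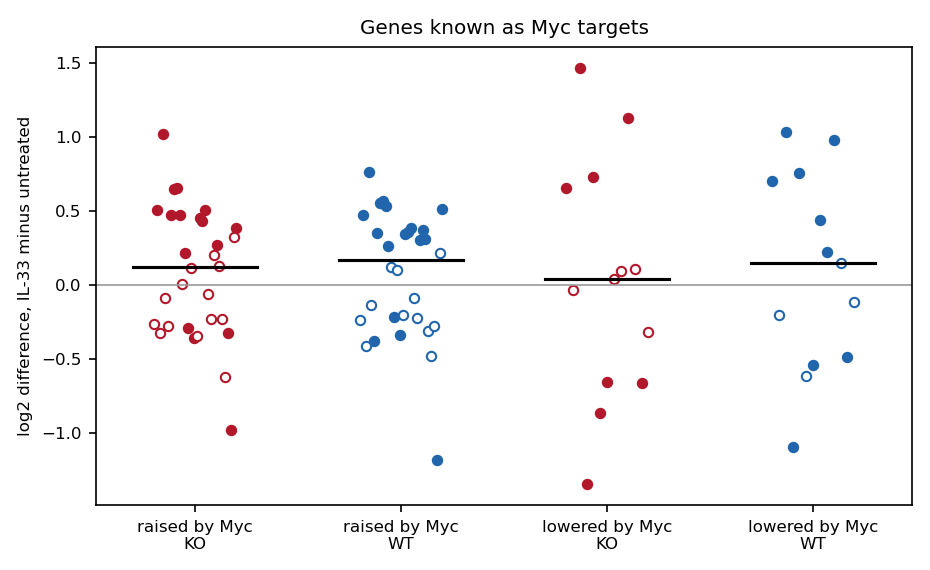
Log2 difference between IL-33 and untreated cells for 30 genes known to be raised and 13 known to be lowered by Myc, KO in red and WT in blue. Filled points have an adjusted p under 0.05 over all tested genes, and black lines are medians (0.13 in KO and 0.17 in WT cells for the raised genes, 0.04 and 0.15 for the lowered genes). Points lie on both sides of 0 in all 4 columns.

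Cofactors that Myc or Mxd proteins recruit fell about as often as tested genes did in all. Of 15 tested cofactors, 2 rose and 6 fell in KO cells (13.3% and 40%, against 18.9% and 33.2% of all tested genes), and 0 rose and 3 fell in WT cells (0% and 20%, against 16.1% and 26.7%). The fit with the mouse as a fixed block gave 3 and 7 in KO cells, against 23.5% and 42% of all tested genes. In WT cells it gave 2 and 4, against 20.8% and 37%. The acetyltransferase Kat2a fell by 0.70 in KO and by 0.54 in WT cells, Wdr5, a chromatin scaffold that binds Myc, by 0.50 and by 0.48, and Sin3a, the corepressor that Mxd proteins and Mnt recruit, by 0.47 and by 0.33. Sap30, a subunit of the Sin3 complex, fell by 0.39 in KO cells and had a difference of 0.16 in WT cells (adjusted p = 0.397, limma). With IL-33 it was also 0.71 lower in KO than in WT cells on the log2 scale (difference -0.71, adjusted p = 0.0227, limma). Sap30 was the 1 of 15 tested cofactors called in that comparison (6.67%, against 2.21% of all tested genes). The count over all genes, 260, ran from 24 to 2094 when 1 array or mouse was left out.

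Among regulators of Myc protein, the Pim kinases rose most. Of 13 tested, 4 rose and 5 fell in KO cells (30.8% and 38.5%, against 18.9% and 33.2% of all tested genes), and 3 rose and 3 fell in WT cells (23.1% each, against 16.1% and 26.7%). The fit with the mouse as a fixed block gave 4 and 6 in KO cells, against 23.5% and 42% of all tested genes. In WT cells it also gave 4 and 6, against 20.8% and 37%. Pim2 and Pim1, kinases known to phosphorylate and stabilise Myc, had differences of 5.72 and 1.64 in KO and of 5.59 and 1.31 in WT cells. The ubiquitin ligase subunit Skp2 fell by 0.64 in KO and by 0.65 in WT cells. Fbxw7, which marks phosphorylated Myc for destruction, rose by 0.59 in KO cells and had a difference of 0.25 in WT cells (adjusted p = 0.154, limma), and with IL-33 it was higher in KO than in WT cells by 0.59 (adjusted p = 0.0373, limma). That was the 1 of 13 tested regulators called between genotypes with IL-33 (7.69%, against 2.21% of all tested genes), and calls of this comparison rest on single mice. Gsk3b, a kinase whose phosphorylation of Myc lets Fbxw7 bind it, fell by 0.47 in KO and by 0.41 in WT cells.

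Factors known to act on the Myc gene moved in both directions. Of 16 tested, 6 rose and 4 fell in KO cells (37.5% and 25%, against 18.9% and 33.2% of all tested genes), and 6 rose and 3 fell in WT cells (37.5% and 18.8%, against 16.1% and 26.7%). The fit with the mouse as a fixed block gave 6 and 5 in KO cells, against 23.5% and 42% of all tested genes. In WT cells it gave 6 and 4, against 20.8% and 37%. Ets2 rose by 2.29 in KO and by 1.96 in WT cells and Ets1 by 1.55 and by 1.43, both of them ETS factors that ERK can phosphorylate. With IL-33, Ets2 was higher in KO than in WT cells by 0.32 (adjusted p = 0.0392, limma). It was the 1 of 16 tested factors called in that comparison (6.25%, against 2.21% of all tested genes), whose calls rest on single mice. Whether ERK had a part in it was not tested. Prdm1, a repressor known to shut Myc off in plasma cells, rose by 1.09 in KO and by 1.03 in WT cells, beside the rise of Myc. Foxo3, a factor of resting cells that growth signalling inactivates, fell by 0.83 in KO and by 0.62 in WT cells.

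Likeness of pattern was measured as Pearson's r over the 20 arrays among the tested genes, which mostly follows the treatment that all these arrays share. The genes most like Myc were Irf4 (0.981), Cd14 (0.98), Socs1 (0.98), Arg1 (0.978) and Eef1e1 (0.976). After the group means were taken out, Plagl1 (0.855), Hmgn3 (0.847) and Isg20 (0.845) were most like it. Mxd1 was closest to Zxdc (0.992), Mxi1 (0.987) and Crebrf (0.987), and Mxd4 to Apobec1 (0.99), Mknk2 (0.989) and Prkacb (0.988). Max was closest to Myo1f (0.981), Tbc1d10c (0.98) and Zfp746 (0.979), and Mnt to Zbtb42 (0.974), Mical1 (0.971) and Rab11fip4 (0.968). For Mxd3 the order was Ncaph (0.94), a condensin subunit, Cenpm (0.937), a centromere protein, and Lrr1 (0.93).

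Among the members themselves, Myc ran against Mxd1 (r = -0.952), Mxd4 (-0.912) and Mnt (-0.899) over the 20 arrays, and Mxd1 ran with Mxd4 (0.974) and Mnt (0.959). Once the group means were removed, these correlations of Myc shrank to -0.38, 0.06 and -0.22, so they were mostly differences between groups. Within groups Max still ran with Mxd4 (0.811) and against Mxd3 (-0.701), and Mxd4 against Mxd3 (-0.75). These are descriptions over 20 arrays that share mice and treatments.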

How the data were processed

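Per the labels' protocols, biotin-labelled cRNA was made with an Affymetrix kit. The authors deposited log2 values of 20630 probe sets on 20 arrays (medians 4.25 to 4.32). That unit was read from the values themselves. The sources used here do not give how arrays were background-corrected, summarized and scaled. Symbols came from the platform annotation, updated through RefSeq (GRCm38.p6, 17675 of 17826 probe sets with 1 symbol matched). Where a gene had several probe sets (54 genes), the brightest was used.

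Genes above the array's 40th percentile (3.56 to 3.68) on at least 5 arrays were tested (11766) with limma 3.58.1 in R 4.3.3: 1 mean per group, all 20 arrays, 16 residual degrees of freedom, Benjamini-Hochberg adjustment, calls at 0.05. The code was tested on simulated data. Exact tests used Python 3.11.15 and scipy 1.17.1. No array date was given, so batches were not tested. The number of arrays limits the precision.

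Within a genotype, arrays with the same replicate number come from the same mouse, as the design gives 5 mice per genotype: their deviations from the group means correlated at r from 0.262 to 0.783, and each of the 10 correlated best with its own number. The mouse was therefore used as a block in alternatives.

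The members and gene lists were chosen with earlier results of these data known. All 6 members, Mxi1 and Dusp5 were named. Of each list, up to 4 called genes with the largest difference were named, and for likeness the 3 genes (5 for Myc) with the highest r. The alternatives were no filter, the 60th percentile, quantile normalization, a trended robust fit, only the groups compared, mouse or replicate number as a block, the mean of probe sets, and leaving out each array and each mouse.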

Additional observations from a re-analysis of the deposited data

Results flagged for a closer look

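Mxd1 in the untreated WT group stood at 9.40 log2 units in replicate 3, set apart from the other 4 arrays (9.74 to 9.82) by Dixon's criterion. The same mouse had the smallest fall of Mxd1 among WT mice, -1.26, against -1.48 to -1.55 in the other 4. About 1 in 20 groups is set apart in this way by chance, and 2 of 36 were.

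For Mxd3 and Mxd4 the IL-33 change of KO mice minus that of WT mice was 0.28 and -0.25, with an exact two-sided permutation p of 0.0317 for Mxd3 and 0.0238 for Mxd4 (n = 5 mice each), unadjusted among 6 members. The interaction in limma had an adjusted p of 0.999 for both, and with the mouse as a fixed block 0.298 for Mxd3 and 0.235 for Mxd4.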

How the results depend on the processing

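Each of the 38 alternatives run for a comparison kept 5 called members for IL-33 in KO cells, and the WT count lay between 4 and 6. None of the members was called between KO and WT cells with IL-33 under those 38, or in the interaction under its 37. Calls came and went in KO against WT in untreated cells: 2 members (Max, adjusted p = 0.0322, and Mxd3, 0.0382) with the replicate number as a fixed block, and 0 to 1 when single arrays or mice were left out (Mxd3 without WT mouse 2). Across genotypes a number does not mark a mouse, as the mice differ. Same-numbered deviations correlated at r from -0.181 to 0.601, and 2 of 5 untreated arrays were most like their own number. Those were numbers 2 and 3 (r = 0.601 and 0.274), which were also most like their own number with IL-33 (0.562 and 0.288). Whether a number marks a batch shared by both genotypes was not tested. The mouse block changed no call of a member other than that of Mxd3 in WT cells (adjusted p = 0.00371 as a random block, with a correlation of 0.464).

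Among single members' values, 867 under omissions and 227 otherwise kept their direction and side of the threshold, 7 and 5 newly passed it and 6 and 1 no longer did. Signs of uncalled values turned in 20 and 1, and the cause was not tested. Mxd4 between KO and WT cells with IL-33 was 0.022 after quantile normalization, and ran from -0.14 to 0.012 when arrays or mice were left out. Over those omissions Myc, KO against WT untreated, ran from -0.038 to 0.11, Mxd1, KO against WT with IL-33, from -0.023 to 0.10, and the Mnt interaction from -0.046 to 0.096.

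Over all genes, the 260 calls between KO and WT cells with IL-33 became 514 with a random mouse block, 2187 with a number block, 444 with the 60th percentile filter, 152 with no filter and 24 with only those arrays. The 3 untreated calls became 806 with a number block.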
